A study of Homo sapiens and Mus musculus with 6 samples.

Results

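The Hoxd set was made of the calls of promoter Capture Hi-C (CHi-C) that had, at either end, a HindIII restriction fragment named in the deposited lists for Hoxd1, Hoxd3, Hoxd4, Hoxd8, Hoxd9, Hoxd10, Hoxd11, Hoxd12 or Hoxd13. In mouse embryonic stem cells (mESCs) it held 211 of 101841 calls, on 6 of the 17157 baited fragments seen in the list. In the human lymphoblastoid cell line GM12878, the same symbols gave 62 of 92929 calls, on 10 of 16616 baited fragments. A call is a pair of fragments, a promoter bait and its other end, whose reads exceeded the background model of the CHiCAGO algorithm with a score of at least 5. A pair of baits called from both ends is counted once for each end, on the same reads. With each fragment pair counted only once, 165 pairs were left in mESCs and 50 in GM12878.

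CHi-C was carried out in GM12878, labelled as B-Lymphocyte, in 3 biological replicates, and in mESCs of strain 129S4/SvJae in 2, and Hi-C was carried out in 1 library of the mESCs. No cells were treated, GM12878 is a single line transformed with Epstein-Barr virus, and the mESCs are the J1 line, grown on irradiated embryonic fibroblasts that were removed by passaging before harvest. The authors called interactions on all replicates of a cell type together, so each cell type is a single set of calls without replicate spread, no test between cell types was possible, and species and cell type cannot be told apart. Contact lists hold no expression values, so the cells could not be checked against markers.

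Hox genes encode homeodomain transcription factors that give cells their position along the body axis, and the Hoxd genes also pattern limbs, digits and the genitalia. They stand in a row in the order in which they are used along the body, and the cluster lies between gene-poor flanks that are known to hold enhancers, on the Hoxd13 side for digits and on the Hoxd1 side for the forearm. In embryonic stem cells the cluster is silent and is known as a domain of Polycomb repression with H3K27me3.

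Sequences are shown for the fragments that the contacts below turn on. The names ending in uce are fragments that carry the label uce in the mESC list, a label the sources used here do not explain. On each of the first pair the mouse bases form an unbroken run that is identical in human, shown in capitals on the plus strand. The first run, of 238 bases, overlaps Dlx1as, the antisense RNA of Dlx1, and was on the fragment with the highest score of all Hoxd contacts over 1 Mb.
Dlx1as uce, mm9 chr2:71374085-71374322, hg19 chr2:172956518-172956755: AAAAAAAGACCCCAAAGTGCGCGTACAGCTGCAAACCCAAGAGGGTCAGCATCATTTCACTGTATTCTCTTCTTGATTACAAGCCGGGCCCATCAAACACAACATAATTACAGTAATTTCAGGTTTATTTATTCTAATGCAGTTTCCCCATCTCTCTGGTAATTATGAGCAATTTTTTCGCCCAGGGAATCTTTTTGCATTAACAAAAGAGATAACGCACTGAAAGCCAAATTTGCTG
The second run, of 255 bases, overlaps no annotated mouse gene and lies within LINC01117 in human. Its fragments were the flank contact with the most member fragments at over 100 kb in each cell type.
Gm13652 uce, mm9 chr2:74976461-74976715, hg19 chr2:177503338-177503592: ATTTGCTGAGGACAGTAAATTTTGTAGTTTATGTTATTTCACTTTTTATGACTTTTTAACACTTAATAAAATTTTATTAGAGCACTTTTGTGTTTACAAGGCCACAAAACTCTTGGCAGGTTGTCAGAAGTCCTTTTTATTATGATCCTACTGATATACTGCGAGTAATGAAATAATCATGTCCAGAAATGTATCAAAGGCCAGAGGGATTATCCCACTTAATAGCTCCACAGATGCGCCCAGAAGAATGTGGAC
The next sequences are gap-free stretches with the most matches in aligned contact fragments without a baited promoter, with bases that match between the species in capitals and the others in lower case, all on the plus strand. In the Hoxd1-side flank 85 of 120 bases matched (70.8%).
Mouse Hoxd1-side anchor, mm9 chr2:75426910-75427029: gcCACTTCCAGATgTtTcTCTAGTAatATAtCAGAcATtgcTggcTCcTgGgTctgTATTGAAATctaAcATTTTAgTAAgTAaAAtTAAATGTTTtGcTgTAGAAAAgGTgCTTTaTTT
Human HOXD1-side anchor, hg19 chr2:178012116-178012235: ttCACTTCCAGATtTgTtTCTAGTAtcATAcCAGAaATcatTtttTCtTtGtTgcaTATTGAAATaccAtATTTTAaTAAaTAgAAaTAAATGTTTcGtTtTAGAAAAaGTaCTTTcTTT
In the Hoxd13-side flank 57 of 80 bases matched (71.2%), and the mouse stretch overlaps the non-coding gene 4930441J16Rik.
Mouse Hoxd13-side anchor, mm9 chr2:74138182-74138261: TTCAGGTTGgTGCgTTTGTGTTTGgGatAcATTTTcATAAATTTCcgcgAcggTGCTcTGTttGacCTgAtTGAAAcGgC
Human HOXD13-side anchor, hg19 chr2:176554650-176554729: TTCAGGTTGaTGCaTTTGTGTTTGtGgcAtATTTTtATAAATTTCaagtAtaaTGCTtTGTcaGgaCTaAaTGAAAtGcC
The last pair gives the 250 bases before the start of the members with the most and the fewest CG dinucleotides in mouse, with CG in capitals. Hoxd13 had 31 and Hoxd4 had 3, against a median of 10 over the 9 members and of 9 over 22367 mouse genes.
Hoxd13, mm9 chr2:74506117-74506366, plus strand: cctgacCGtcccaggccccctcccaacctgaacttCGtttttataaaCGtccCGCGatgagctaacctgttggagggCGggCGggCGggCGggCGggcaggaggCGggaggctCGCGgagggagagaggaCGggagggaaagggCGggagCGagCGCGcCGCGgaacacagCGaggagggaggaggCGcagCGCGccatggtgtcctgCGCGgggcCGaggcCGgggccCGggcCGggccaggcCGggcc
Hoxd4, mm9 chr2:74559785-74560034, plus strand: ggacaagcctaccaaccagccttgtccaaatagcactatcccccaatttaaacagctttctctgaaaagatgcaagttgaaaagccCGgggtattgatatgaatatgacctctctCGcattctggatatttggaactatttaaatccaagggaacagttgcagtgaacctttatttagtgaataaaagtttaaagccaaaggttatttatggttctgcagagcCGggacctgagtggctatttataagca
In human the 9 members had a median of 23, from 4 at HOXD4 to 31 at HOXD1, against 15 over 19810 genes. HOXD4 thus had the fewest CG dinucleotides before its start in each species.

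In the mESC list 6 of the 9 genes were named on a fragment, all on the plus strand of chromosome 2 in mm9. From the Hoxd13 end, these were Hoxd13 (chr2:74501995-74507503, 51 calls), Hoxd12 (chr2:74510050-74515322, 42 calls), Hoxd11 (chr2:74517175-74517558, 21 calls), Hoxd10 (chr2:74526241-74532944, 39 calls), Hoxd8 (chr2:74540226-74547335, 23 calls) and Hoxd3 (chr2:74547336-74552118, 56 calls). The fragment named Hoxd11 is 384 bp long and holds only the start of a non-coding transcript, since the coding start of Hoxd11 lies on another fragment. The remaining genes were found by their transcription starts on fragments named after neighbours. Hoxd9 starts on the fragment named Gm14396 (chr2:74532945-74537028, 55 calls), Hoxd4 on those named 1700109F18Rik (chr2:74552119-74560206, 30 calls) and Mir10b (chr2:74560207-74567345, 36 calls), and Hoxd1 on that named 6720416L17Rik (chr2:74600146-74602366, 45 calls). The Mir10b fragment also holds a coding start of Hoxd3, so values given below for its Hoxd4 start may belong to either gene. These 4 located fragments are given beside the members and are not counted among the 211 calls. The cluster is taken here as 100.0 kb from the Hoxd13 fragment to that of the Hoxd1 start, and each flank as the next 1 Mb.

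In GM12878 all 9 genes were named. The fragments, in hg19, were HOXD13 (chr2:176955985-176958775, 9 calls), HOXD12 (chr2:176961158-176967522, 6 calls), HOXD11 (chr2:176967523-176969046, 6 calls), HOXD10 and HOXD11 together (chr2:176969047-176976051, 13 calls), HOXD9 (chr2:176985034-176991384, 3 calls), HOXD8 (chr2:176991718-176999629, 5 calls), HOXD3 at its 5′ end (chr2:176999630-177004368, 9 calls), HOXD3 with MIR10B (chr2:177013623-177015550, 5 calls), HOXD4 (chr2:177015551-177019218, 2 calls) and HOXD1 (chr2:177046017-177057406, 4 calls). The coding start of HOXD10 in the annotation used, at position 176981506, lies outside the fragment named for it. That fragment, of HOXD10 and HOXD11, holds the coding start of HOXD11. The fragment named HOXD11 alone and that of HOXD3 with MIR10B hold no coding start of a member. The GM12878 cluster spans 101 kb.

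A mouse Hoxd fragment had a median of 40.5 calls (range 21 to 56, n = 6), where the median over the baited mESC fragments in the list was 4. A human one had 5.5 (range 2 to 13, n = 10), where the median was also 4. Baited fragments without any call are not in the lists, so they are left out of these medians and of the shares of baited fragments below. The median distance of the Hoxd calls was 71.7 kb in mESCs, against 139 kb over all cis-chromosomal calls, and 509 kb in GM12878, against 174 kb. The mouse value depends on which fragments count as members: with the located fragments of Hoxd9, Hoxd4 and Hoxd1 it was 219 kb, and with all listed fragments between the outermost members 334 kb, both above that of all calls. Contacts of the mouse members reached from 4.68 kb to 41.1 Mb, and those of the human members from 194 kb to 1.04 Mb. Mouse Hoxd fragments were thus called with many partners near and very far, and human ones with fewer than these, at intermediate distance. The human median number of calls was still not below that of the listed baits. The listed read count of a call averages the replicates with weights for their depth, so it is not a raw count. It is not corrected for distance or for how well each fragment was captured. Reads of different fragments are therefore given as listed and are not directly comparable. The Wilson 95% intervals given below cover counting error only, and calls of adjacent fragments can share a signal. They also count a pair called from both ends for each end. With each fragment pair counted only once, 79 mESC pairs lay within the cluster, 46 in the flanks and 12 over 10 Mb.

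Within the cluster, 99 of the 211 mESC calls (46.9%, 95% interval 40.3 to 53.6) joined a Hoxd member to another fragment of the cluster, with listed read counts of 10 to 213 (median 53) and scores of 5.13 to 66.97. With the cluster ended at the outermost named fragments, Hoxd13 and Hoxd3, 47 calls lay within it and 105 in the flanks. No GM12878 call lay within the cluster (0 of 62, which allows a share of up to 4.84%). Yet 30.2% of all GM12878 calls, and 39.1% of all mESC calls, were shorter than the cluster is long. Contacts between the Hoxd promoters were therefore listed throughout in the mouse cells and nowhere in the human cells.

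Neighbouring fragments are never listed as a call in these data (0 of 1082 adjacent baited pairs in mESCs and 0 of 1242 in GM12878), so pairs were counted without them. All 14 non-adjacent pairs of the 6 mouse members, 4.68 to 45.0 kb apart, were called, where 33.2% of the 33735 such pairs of baited fragments under 110 kb apart were called over the genome. None of the 41 pairs of human members, 6.96 to 94.3 kb apart, was called, which allows a share of up to 7.32%, where 31.1% of 24896 pairs were called. At matched distance the background was 52.9% in mESCs and 45.6% in GM12878 under 10 kb, 41.2% and 38.1% at 10 to 25 kb, 33.3% and 31.2% at 25 to 50 kb, and 30.1% and 28.7% at 50 to 110 kb. The human pairs lay in each of these bands, with 3, 11, 17 and 10 pairs, and the mouse pairs in the first 3, with 2, 6 and 6. These pairs share fragments, so they are not independent and no test is given.

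**Figure D1:**
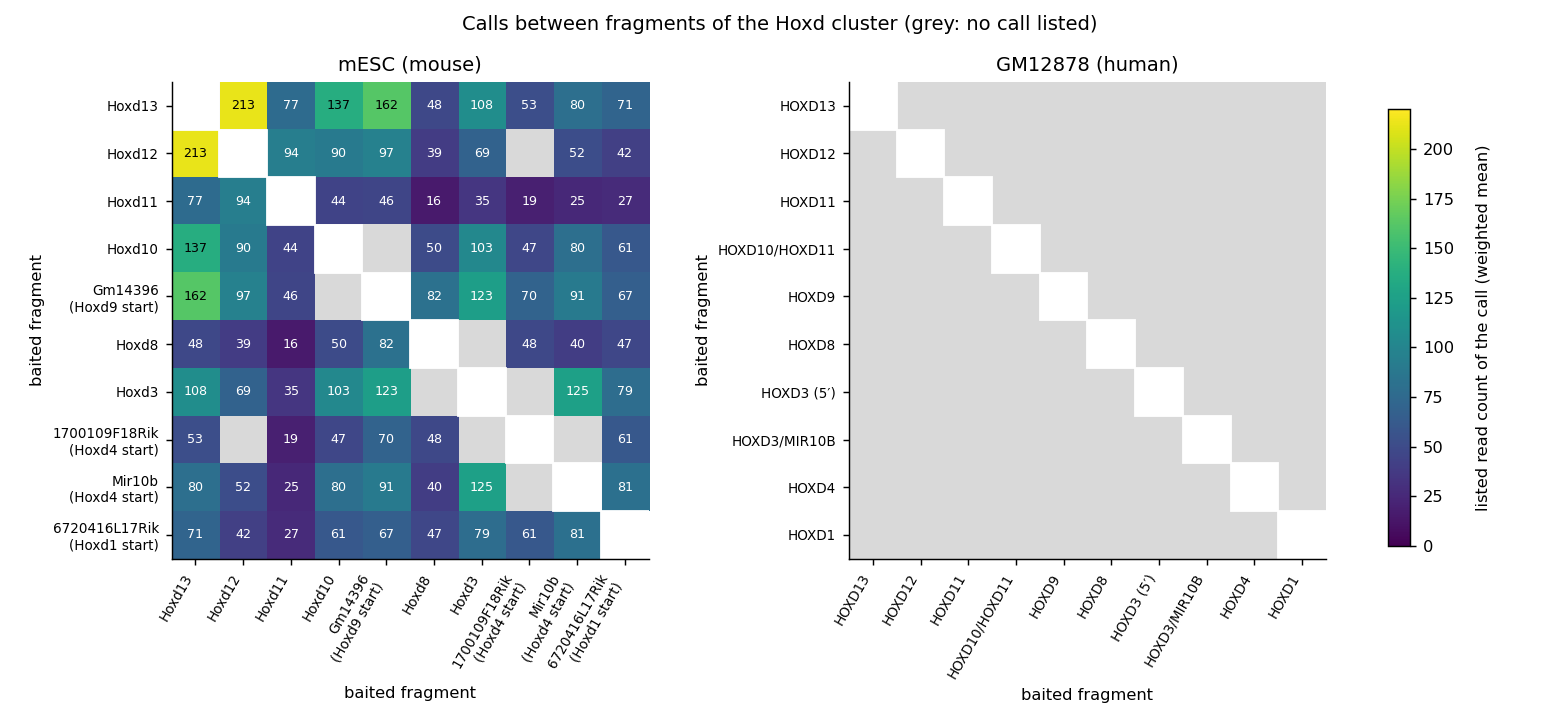
Listed read count of the calls between baited fragments of the Hoxd cluster in mESCs (left) and GM12878 (right), with the fragments in chromosome order from Hoxd13 to Hoxd1 on each axis, white for a fragment with itself and grey where no call is listed. In mESCs 40 of 45 pairs are filled, with 16 to 213 reads, and in GM12878 none is.

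With the 4 located fragments included, 40 of the 45 mouse pairs (88.9%) had a call, with a median of 68 reads. Of the 5 without one, 4 are neighbours on the chromosome, and the other is Hoxd12 with 1700109F18Rik. At the Hoxd13 end, which holds the genes used last and most distally in limbs, Hoxd13 with Hoxd12 gave the most reads, 213. Hoxd13 was also joined by 162 reads to the Hoxd9 start on Gm14396, by 137 to Hoxd10 and by 108 to Hoxd3. Hoxd8, which lies between Gm14396 and Hoxd3, was joined to Hoxd13 by 48 reads. The listed reads of Hoxd13 thus did not fall steadily along the row, but they are not corrected for the capture of each fragment. What part capture had in this was not tested.

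Hoxd8 gave the 3 highest scores within the cluster on modest read counts. Its call with the Hoxd1 start on 6720416L17Rik scored 66.97 with 47 reads over 57.5 kb, that with Hoxd13 scored 58.92 with 48 reads over 39.0 kb, and that with Hoxd12 scored 43.06 with 39 reads over 31.1 kb. The score depends on the direction, because the background is set for each bait: the pair of Hoxd13 and Hoxd8 scored 58.92 from the Hoxd8 bait and 5.95 from the Hoxd13 bait on the same 48 reads. At the Hoxd1 end, the genes used first and most anteriorly, Hoxd3 with Mir10b, the microRNA gene beside Hoxd4, gave 125 reads, and Mir10b with the Hoxd1 start gave 81. The 384-bp Hoxd11 fragment had 16 to 94 reads over its 9 pairs, and whether its length had a part in its counts was not tested.

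The other Hox clusters were the most similar sets in the lists, and were counted in the same way. In mESCs every non-adjacent pair of named fragments was called in Hoxa (26 of 26), Hoxb (43 of 43), Hoxc (21 of 21) and Hoxd (14 of 14). In GM12878, 0 of 13 pairs were called in HOXA, 1 of 64 (1.56%) in HOXB, 4 of 27 (14.8%) in HOXC and 0 of 41 in HOXD. The filled mouse cluster and the empty human one were therefore not particular to Hoxd. Hoxd differed from Hoxa and Hoxb in its class of 1 to 10 Mb, with 44 calls of 211 against 5 of 389 and 11 of 499, while Hoxc had 47 of 512. No test of these differences was made.

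**Figure D2:**
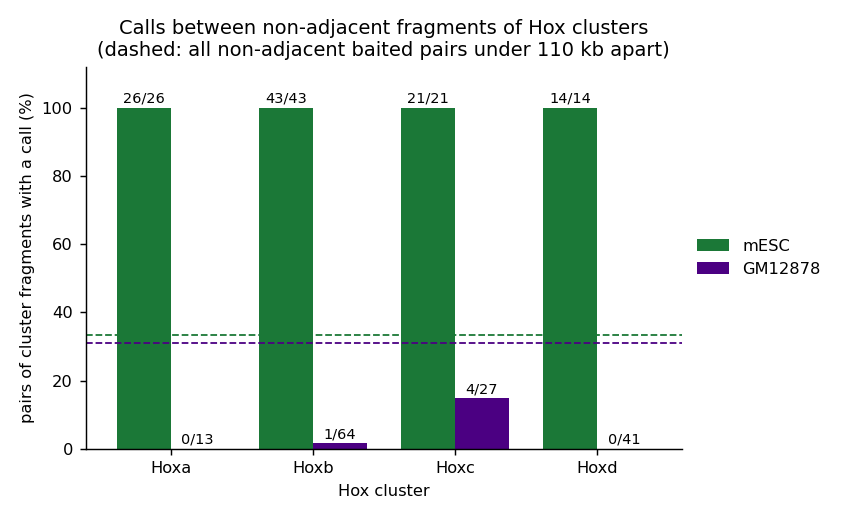
Share of non-adjacent pairs of named fragments with a call, in percent, for each Hox cluster in mESCs (green) and GM12878 (purple), with the number of pairs above each bar. The dashed lines give the share over all non-adjacent baited pairs under 110 kb apart, 33.2% in mESCs and 31.1% in GM12878, and all mouse bars stand above it and all human bars below.

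The flanks took 53 of the 211 mESC calls (25.1%, 95% interval 19.7 to 31.4), with 25 on the Hoxd13 side and 28 on the Hoxd1 side. In GM12878 they took all 62 calls, 16 on the HOXD13 side (25.8%, 95% interval 16.6 to 37.9) and 46 on the HOXD1 side (74.2%, 95% interval 62.1 to 83.4). The share of all calls at such distances was not computed, so these shares of calls have no background. Of all HindIII fragments of the flanks, 27 of 676 (3.99%) were called with a mouse member and 23 of 652 (3.53%) with a human one. These shares come from 6 mouse and 10 human member fragments, so they are not matched. With the located fragments included, 42 of the 676 mouse flank fragments were called. The human members thus contacted flank fragments although none was called inside the cluster. Hoxd3 had many of the mouse flank calls, and 32 were left without it. At a score of at least 10 there were 18 mouse and 9 human flank calls.

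Within the flanks, the side of the contacts differed along the row once the near fragments, such as that of Evx2, were left out. Counting only flank partners between 100 kb and 1 Mb beyond the cluster, mouse Hoxd13 had 5 calls on its own side and 2 on the Hoxd1 side, and Hoxd12 had 3 and 2. Hoxd11 had none on either side. Hoxd10 had 0 on the Hoxd13 side and 3 on the Hoxd1 side, and Hoxd8 had 0 and 2. Hoxd3, which stands toward the other end, had 0 and 17, with 251 listed reads in all. Among the located fragments the Hoxd9 start on Gm14396 had 0 and 12, the Hoxd4 starts had 0 and 17 on 1700109F18Rik and 1 and 9 on Mir10b, and the Hoxd1 start had 0 and 11. These counts hold for this range alone, since all 44 member calls of 1 to 10 Mb lay on the Hoxd13 side, 11 of them for Hoxd13, 10 for Hoxd12, 1 for Hoxd11, 9 for Hoxd10, 5 for Hoxd8 and 8 for Hoxd3. With these added, Hoxd10 and Hoxd8 had more calls on the Hoxd13 side than on the Hoxd1 side.

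In the human row all calls lay in the flanks. HOXD13 had 7 calls on its own side and 2 on the HOXD1 side, and HOXD12 and HOXD11 had 4 and 2 each. The fragment of HOXD10 and HOXD11 had 1 and 12, which made it the first in the row with more calls on the HOXD1 side. It holds the coding start of HOXD11, which the fragment named HOXD11 alone does not. From HOXD9 on, no call on the HOXD13 side was listed, and the HOXD1 side had 3 for HOXD9, 5 for HOXD8, 9 for HOXD3 at its 5′ end, 5 for HOXD3 with MIR10B, 2 for HOXD4 and 4 for HOXD1. In both cell types the HOXD13 and HOXD12 fragments were thus called on both sides in this range. Closer than 100 kb, the Evx2 area was called with all 6 mouse members and with no human one. Single calls decide some of these counts, and fragments near each end of the cluster lie up to 100 kb closer to their own flank.

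**Figure D3:**
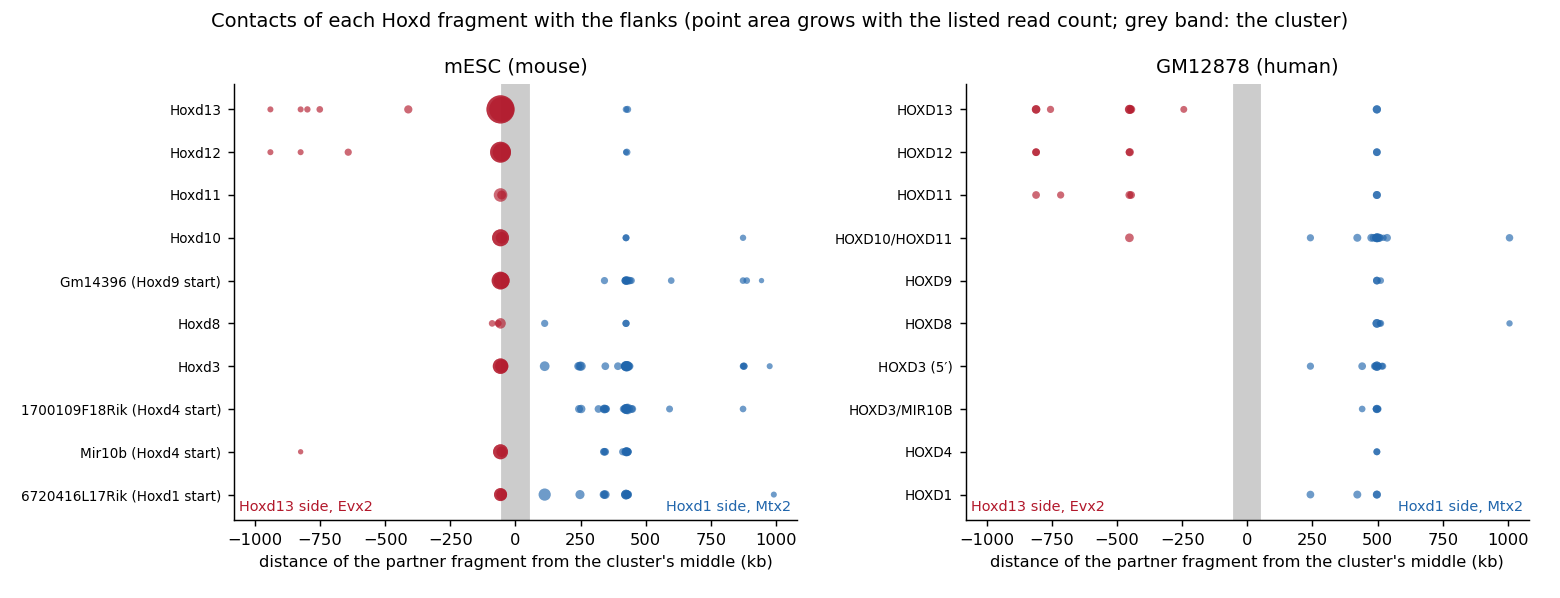
Contacts of each baited fragment of the Hoxd cluster with partners in the flanks, in mESCs (left) and GM12878 (right), against the distance of the partner from the middle of the cluster in kb, with the Hoxd13 side in red, the Hoxd1 side in blue and a point area that grows with the listed read count. Hoxd13 and Hoxd12 have points far out on both sides in each cell type, and the fragments from HOXD9 to HOXD1 in GM12878 have points on the Hoxd1 side alone.

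Of 19 flank genes on the list used here, 14 had a baited fragment in mESCs, and 7 of these were called with a Hoxd member. Evx2, an even-skipped homeobox gene next to Hoxd13, had 10 calls, with all 6 member fragments. Its reads were 199 with Hoxd13 at 9.89 kb, 108 with Hoxd12, 44 with Hoxd11 and 70 with Hoxd10. With Hoxd8 they were 25 and with Hoxd3, at 54.9 kb, 58, so they did not fall steadily along the row. The highest score, 30.31, was that of Hoxd8. Evx2 thus stood in the contacts like a further gene of the cluster. Mtx2, a gene of mitochondrial protein import on the Hoxd1 side, was called with Hoxd3 (21 reads, 114 kb) and Hoxd8 (10 reads, score 13.44), and most strongly in reads with the located Hoxd1 start (35 reads, score 8.80).

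Among the members, the other contacts with flank genes in mESCs were those of Hoxd12 and Hoxd13, apart from Sp9. Atf2, a bZIP transcription factor gene, had 6 reads with each of them, at scores of 13.19 and 12.79, and 4 reads with the Hoxd4 start on Mir10b (score 7.65). Atp5g3, a subunit of ATP synthase, was called with Hoxd13 (7 reads, score 9.39), Chn1, a regulator of Rac signalling, with both at 6 reads and a score of up to 5.42, and Wipf1, an actin regulator, with Hoxd12 (9 reads, score 8.07, 1.15 Mb). Sp9, a zinc finger gene of the limb ectoderm and forebrain at about 1.4 Mb, had 8 calls with 5 members, of 15 reads with Hoxd13, 11 with Hoxd12, 11 with Hoxd10, 8 with Hoxd3 and 4 with Hoxd8. Chrna1, Nfe2l2, Agps, Pde11a, Ttc30b, Rbm45 and Osbpl6 were baited and had no call with a member, while Nfe2l2 had 1 with the located Hoxd1 start (6 reads, score 5.47). Hoxd3 was called with a fragment named U6.830 within 15.2 kb of the start of Nfe2l2, a gene of the oxidative stress response (6 reads, score 6.02). In GM12878, 13 of the 19 genes were baited, EVX2 and SP9 among them, and none was called with a HOXD member. This count has no background either.

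On the Hoxd1 side most mouse contacts fell in one area, chr2:74792266-74995451, with 12 partner fragments and 21 calls from 5 members. Its strongest fragment was the uce fragment chr2:74974134-74978521, which carries the 255-base run printed above and the start of the non-coding gene Gm13652. The listed reads with it were 8 for Hoxd13, 6 for Hoxd12, 9 for Hoxd10, 10 for Hoxd8 and 23 for Hoxd3. Located fragments gave 15 for the Hoxd9 start, 22 and 16 for the Hoxd4 starts and 21 for the Hoxd1 start. Counts of over 10 were thus found only for Hoxd3 and 4 located fragments, and Hoxd11 had no call. The score reached 34.24, for Hoxd3 from the uce bait.

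In GM12878 the corresponding area was chr2:177426098-177545251, with 14 partner fragments and 41 calls from all 10 member fragments. The bait LINC01116 and LINC01117 (chr2:177501443-177506085), a start shared by long non-coding RNA genes, was called with every member fragment from both ends, 20 calls in all. From HOXD13 to HOXD1 it had 14, 12, 13, 17, 12, 16, 19, 14, 9 and 13 listed reads, over 452 to 546 kb. Its scores ran from 5.42 to 18.42, the highest for HOXD3 at its 5′ end. The human reads were lowest for HOXD4 and highest for HOXD3 at its 5′ end, not for the nearest member, HOXD1. On the HOXD13 side the strongest area was chr2:176553654-176562162, with 8 calls from the 4 fragments of the HOXD13 end, up to 18 reads and a score of 9.71. Contacts further out at chr2:176193018-176292604 numbered 7, from HOXD11, HOXD12 and HOXD13.

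The flanks of the 2 species were aligned, after the calls had been seen, in 920 collinear alignments over 683249 bp with a mean identity of 73.4%. Of the 676 mouse flank fragments, 24 (3.55%) aligned to a partner fragment of a human member, and 9 of these 24 were among the 27 called with a mouse member. From the human side, 11 of 23 partner fragments aligned to one of the 42 fragments called with a mouse member or located fragment, a wider set than the 27. The same share over all human flank fragments was not computed, so this count has no background. The mouse uce fragment and the human bait of LINC01116 and LINC01117 had 2456 bp aligned. On the Hoxd13 side the mouse fragment chr2:74138101-74143729, called with Hoxd13 alone (14 reads, score 8.43), aligned to each of the 3 human fragments of the area on the HOXD13 side, over 389, 640 and 762 bp. At about 0.9 to 1 Mb on the Hoxd1 side, chr2:75422955-75427643 and chr2:75427644-75428640, called with Hoxd3 and Hoxd10, aligned over 855 and 378 bp to chr2:178011536-178013882, called with HOXD8 and the fragment of HOXD10 and HOXD11. Sequence pairs from these last fragments are the Hoxd1-side and Hoxd13-side anchors printed above. The fragments of a species are neighbours of each other, so the counts describe areas more than single contacts.

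Beyond the flanks, 44 mESC calls (20.9%, 95% interval 15.9 to 26.8) reached 1 to 10 Mb, where 2742 of all 101841 mESC calls did. Another 15 (7.11%, 95% interval 4.36 to 11.4) reached over 10 Mb, where 0.681% of all mESC calls did. Every one of the 6 mouse members had a call over 10 Mb, where 1.4% of the 17157 baited fragments had one, and none had a trans-chromosomal call, where 2.03% had one. The share of trans-chromosomal calls, 0 of 211, allows up to 1.42%, which includes the 0.569% of all mESC calls. In GM12878 none of the 10 member fragments had a call over 10 Mb or in trans, where 0.175% and 0.253% of the 16616 fragments had one. The human absence therefore lay within what the background gives.

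Beyond Sp9 and Wipf1, described above, the area of Dlx1 and Dlx2 (chr2:71359879-71388212), a pair of distal-less homeobox genes of forebrain interneurons and limbs, lay 3.18 Mb away on the Hoxd13 side. It had 32 calls over 4 fragments, with all 6 members. Reads with its uce fragment (chr2:71371785-71374423), which carries the 238-base run printed above, were 19 for Hoxd13, 13 for Hoxd12, 4 for Hoxd11, 14 for Hoxd10, 5 for Hoxd8 and 12 for Hoxd3. The located fragments also had calls with it, of 17 reads for the Hoxd9 start, 6 and 5 for the Hoxd4 starts and 5 for the Hoxd1 start. All 10 fragments of the cluster thus contacted the Dlx area, and Hoxd13 had the highest score, 46.09, followed among the members by Hoxd10 with 31.87 and Hoxd12 with 28.85. Lrp2, an endocytic receptor gene at 5.13 Mb, had 1 call, with Hoxd3 (4 reads, score 5.56).

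Over 10 Mb the contacts went to 3 areas that hold genes of homeodomain transcription factors. Lmx1b, which patterns the dorsal limb, lies at 41 Mb (chr2:33482303-33517082) and had 8 calls, with Hoxd13, Hoxd12, Hoxd11 and Hoxd3. Its highest score was 17.63, for Hoxd13 with 6 reads, and Hoxd12 had 11.97 with 5 reads. Lhx2, a LIM homeobox gene of eye, forebrain and limb, lies at 36.4 Mb (chr2:38193888-38197083) and had 5 calls, of 5 reads with Hoxd12 (score up to 16.69), 4 with Hoxd10 (10.86) and 3 with Hoxd3 (5.20). Pax6, the paired-box gene of eye development, lies at 31.0 Mb on the other side (chr2:105510115-105524767) and had 1 call each with Hoxd8 (3 reads, 7.95) and Hoxd13 (4 reads, 7.12). Every Hoxd call over 10 Mb rested on 3 to 6 listed reads, where those within the cluster had a median of 53. At a score of at least 10, 4 of the 15 calls were left. The Hoxd9 start on Gm14396 contacted all 3 areas, with the highest score at Pax6, 16.43 on 6 reads, which is above that of either member there.

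**Figure D4:**
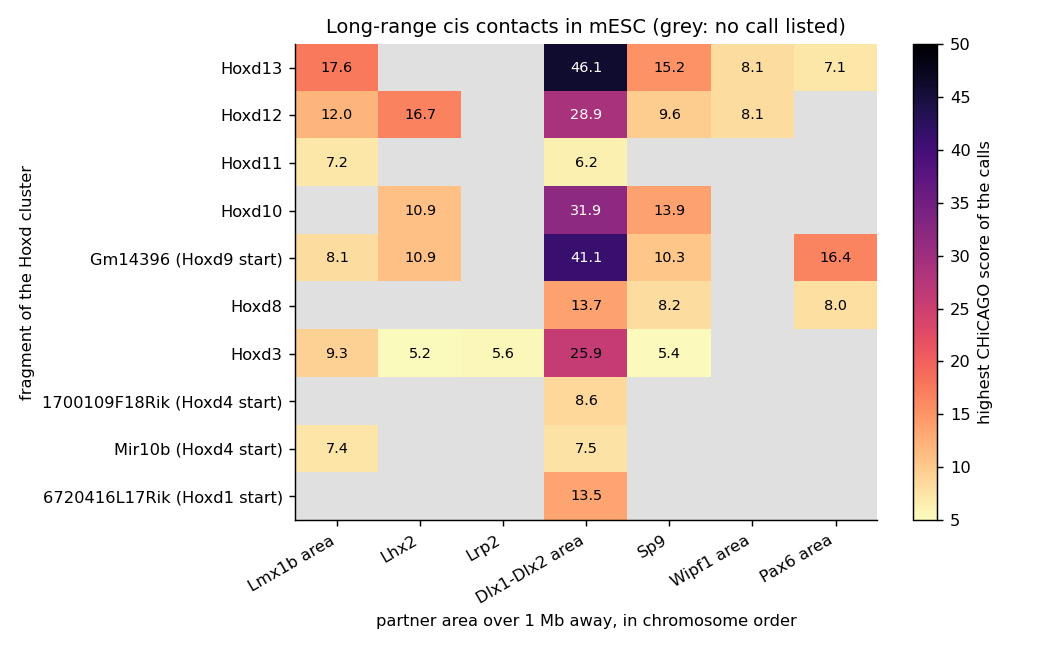
Highest CHiCAGO score of the mESC calls between each baited fragment of the Hoxd cluster (rows, in chromosome order) and each partner area over 1 Mb away (columns, in chromosome order), with grey where no call is listed. The column of the Dlx1 and Dlx2 area is filled for all 10 fragments, up to 46.1 for Hoxd13, and the Lmx1b, Lhx2 and Pax6 columns are filled in part.

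Outside the cluster the mouse members had 41 partner fragments, of which 19 were named. Of these 19, 5 (26.3%) carried a gene of the list of developmental transcription factors, namely Evx2, Sp9, Dlx1, Lhx2 and Lmx1b, where 1.36% of 17151 named fragments did. Of the 10 named partners over 1 Mb away, 4 did. The human members had 23 partner fragments, of which 5 were named and none was on the list, where 1.22% of 16606 named fragments were. The list includes the gene families these contacts were already known to hold, so the share is a description. Over all baits, both ends of 58 of 358 calls over 10 Mb between baits (16.2%) were on the list.

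A contact between baits can be called from either end or from both. In mESCs 46 of 85 Hoxd pairs (54.1%, 95% interval 43.6 to 64.3) were called from both ends, where 26.2% of 29320 such pairs were. In GM12878 it was 12 of 18 (66.7%, 95% interval 43.7 to 83.7), where 18.5% of 23092 were, and 10 of the 12 were the contacts with LINC01116 and LINC01117.

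The Hi-C data of the mESCs were made before capture. Captured reads can come from the same ligation products, so an overlap of CHi-C and Hi-C is not independent evidence of a contact. Of 152 Hoxd calls under 1 Mb, 85 (55.9%, 95% interval 48.0 to 63.6) lay within a 25-kb bin pair with a false discovery rate under 0.05, where 11.6% of 97826 calls did. The share was 61.6% within the cluster (61 of 99) and 45.3% in the flanks (24 of 53). For calls of 25 kb to 1 Mb alone it was 52.7% (58 of 110), where 11.7% of all such calls lay within a bin pair. Contacts of the cluster were therefore also listed by Hi-C more often than the calls as a whole. The bins starting at positions 74523802 and 74500549, which hold the promoters from Hoxd10 to Hoxd8 and from Hoxd13 to Hoxd11, had 233 read pairs where 68.5 were expected (3.40 times), the most reads of any pair within the cluster.

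Among longer contacts, 0 of 44 Hoxd calls of 1 to 10 Mb lay within a listed 1-Mb bin pair (95% interval up to 8.03%), where 53.7% of 2742 calls did, so the Dlx and Sp9 contacts were not listed at this bin size. All 15 calls over 10 Mb did (95% interval 79.6 to 100.0%), where 81.8% of 694 did. These 15 calls fell in only 3 partner bins, and the 44 also fell in few. Calls in the same bin pair share their outcome, so both intervals, which treat calls as separate, are too narrow. The 1-Mb bin of the Hoxd cluster had 7 listed cis-chromosomal partners, and 3 of these were the bins of Lmx1b, Lhx2 and Pax6. The Lmx1b bin had 206 read pairs where 85.8 were expected (2.40 times), the Lhx2 bin 229 where 122 were expected (1.88 times), and the Pax6 bin 182 where 115 were expected (1.58 times). The other 4 partner bins, 1.58 to 1.78 times above expectation, held no partner of a Hoxd call. A 1-Mb bin holds many fragments besides those of the Hoxd genes, so its excess is that of the whole bin.

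**Figure D5:**
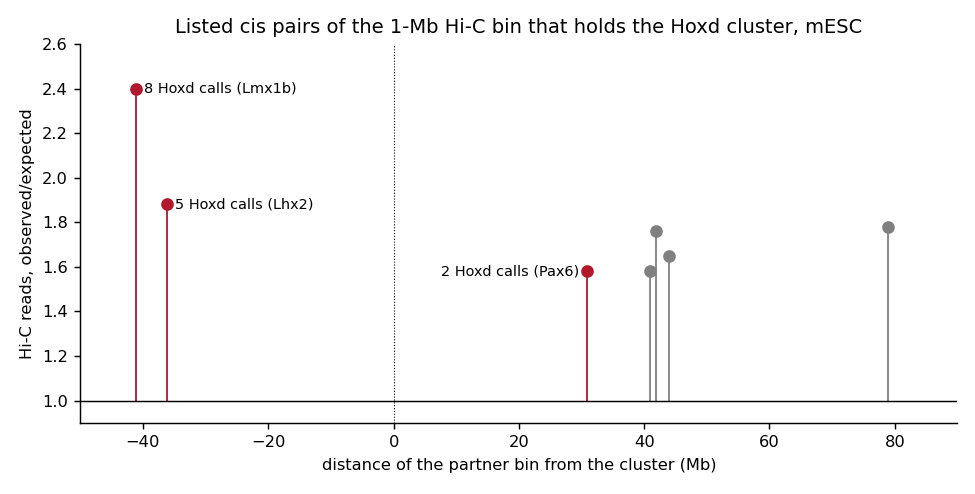
Observed over expected Hi-C read pairs (y axis) for each cis-chromosomal partner listed for the 1-Mb bin of the Hoxd cluster in mESCs, against its distance in Mb (x axis), with red for bins that hold partners of Hoxd calls over 10 Mb and grey for the others. The Lmx1b bin stands highest, at 2.40, and each of the 3 areas contacted in CHi-C is among the 7 listed bins.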

How the data were processed

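The data were promoter CHi-C of GM12878 (3 replicates) and mESCs (2) and a single mESC Hi-C library. The authors aligned reads with HiCUP (Bowtie 1.1.0, per the labels) to the hg19 and mm9 genomes, removed artefacts and duplicates, kept pairs with an end on a bait and ran CHiCAGO on all replicates of a cell type together. The deposited score is CHiCAGO's weighted p-value on a negative log scale with a soft threshold, and the lists hold scores of at least 5. The read value beside it was averaged by the authors over the replicates, with size factors as weights, and rounded, so it is no raw count. For Hi-C, the authors called bin pairs with HOMER 4.7. The deposited count is of read pairs joining 2 bins, and the deposited signal is the expected number given coverage and distance. The deposited p-value is the one adjusted by Benjamini-Hochberg. The lists are not cut at 0.05. With each bin pair counted once, 6135 of 62666 pairs of 25-kb bins and 20679 of 25147 of 1-Mb bins were under it. The shares of calls within bin pairs used only those.

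Calls with a member symbol at either end were kept, and grouped by fragment midpoints. Shares were given with Wilson 95% intervals, and a count of 0 with 3 counts of the total as its limit. The size of a set is its number of calls, which is not its sequencing depth. HindIII digests of mm9 and hg19 held 100.0% of the listed fragments of chromosome 2. Starts came from GENCODE vM1 and v44lift37. Flanks were aligned with blastn 2.17.0 (alignments of at least 100 bp, e-value limit 1e-10, single-copy and collinear). Python 3.11.15, pandas 2.3.3 and matplotlib 3.10.9 were used, and counting was checked on simulated calls.

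The members, the gene lists and the counts were chosen with earlier results of these data known. Genes named are the members, 19 flank genes, genes on partner fragments over 10 Mb away, the 3 calls of the highest score in each class, and the 5 baits most like the members (6 where tied). Lrp2 and other partner fragments outside this rule were named after their values were seen. Columns of the Hi-C lists other than reads, expected reads and FDR were not used.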

Additional observations from a re-analysis of the deposited data

How the results depend on the processing

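Of 99 alternatives over 14 results, 79 stayed within 1.5 times the value or its interval and 20 moved. A score of at least 10 left 114 of the mESC calls, 64 within the cluster, 18 in the flanks and 4 over 10 Mb, raised the 25-kb Hi-C share to 68.3%, and left 9 GM12878 calls, all 9 in the flanks. At least 10 reads per call left 0 mESC calls over 10 Mb, so the 1-Mb Hi-C share had no value, and gave a median distance of 51.5 kb. All listed fragments between the outermost members gave 380 mESC calls, 128 in the flanks, 26 over 10 Mb and a median of 334 kb. Without Hoxd3, which had the most calls, 32 flank calls were left and the 25-kb Hi-C share was 67.8%. Chosen after seeing the data, adding the located fragments gave 334 calls, 113 in the flanks, 23 over 10 Mb and a median of 219 kb, and ending the cluster at the outermost named fragments gave 47 calls within it and 105 in the flanks. No paired analysis was possible because the calls merge all replicates, and for the same reason no replicate could be left out. Calls over 10 Mb rest on 3 to 6 reads each. Whether depth limits them or the number of GM12878 calls was not tested.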

Other observations

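Contacts of other baits were compared by stretches of 1 Mb. Among 1320 other baits of mouse chromosome 2 over 10 Mb from the cluster, 6 contacted any of the 3 stretches over 10 Mb away that Hoxd contacted. The most similar was Gm13330, at 56.6 Mb, which shared the stretches that hold the Lmx1b and Lhx2 areas (Jaccard index 0.667). The other 5, namely 4930412O13Rik, 5430417L22Rik, Bahd1, 6430503K07Rik and AI646519, each shared 1 stretch (0.333) and are tied. Whether the same fragments were contacted was not tested. None of the 6 was called with a Hoxd member.

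In the 1-Mb Hi-C list the bin of the Hoxd cluster also had partners on other chromosomes, although no Hoxd fragment had a trans-chromosomal call in CHi-C. The pair with the lowest false discovery rate joined it to the bin starting at 96 Mb of chromosome 11, with 57 read pairs where 24.6 were expected (2.31 times, FDR 7e-06). Over 10 Mb in cis, the other Hox clusters had 29 calls of 389 for Hoxa, 86 of 499 for Hoxb and 0 of 512 for Hoxc, beside 15 of 211 for Hoxd.

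The third fragment labelled uce that a Hoxd member contacted, chr2:74480029-74491104 beside Evx2, held the longest identical run of the 3, 391 bases, and the fewest calls, 1, with Hoxd8 (9 reads, score 8.40).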
